A study of Mus musculus with 4 samples.

Results

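The peaks described here are the narrow ones, at most 200 bases wide, among RNA crosslinked to the transcription factor YY1 in 4 stretches of the mouse genome known to hold clusters of transfer RNA (tRNA) genes. They were chosen by width and position. A peak of the deposited lists was taken if it overlapped chromosome 13 from 21200000 to 21450000 (the first window), chromosome 13 from 23400000 to 23750000 (the second window), chromosome 3 from 96100000 to 96320000 or chromosome 11 from 68800000 to 68960000, and if its end lay at most 200 bases from its start. Of 12053 peaks, 98 met both conditions, or 0.813%. Positions are 1-based coordinates of the mm9 build.

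The measurement was CLIP-seq, in which RNA is crosslinked to a protein by ultraviolet light, captured with it and sequenced. The YY1 cells were embryonic stem cells that made the bacterial biotin ligase BirA and BioYY1, a form of YY1 that is captured on streptavidin. They were grown on irradiated embryonic fibroblasts and crosslinked at 254 nm, and nuclei were purified before lysis. The series has 4 groups of 1 library each, all from cells that made BirA; the BirA-only control for YY1, OCT4 and its control were not analysed here, so no level in a control can be set beside any value below. With 1 library there is no estimate of replicate error and no p-value is given. Intervals are exact 95% intervals over peaks, which cover counting error only and treat neighbouring peaks as independent.

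Transfer RNAs carry amino acids to the ribosome. Their genes are short, and RNA polymerase III reads them from promoter elements inside the gene. Each gene can thus be transcribed on its own, and the genes of a cluster can lie on either strand. The primary transcript has a short leader and trailer that are trimmed off in the nucleus. In the mouse, many tRNA genes stand in clusters, the largest of them on chromosome 13 among the genes of replication-dependent histones, and many are near-identical copies of each other. Reads from such copies can map to several places, and how they were assigned is not given in the sources used here, so peaks over copies of a gene cannot be taken as separate transcripts with certainty.

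No mm9 annotation was used, so peaks are named by position. The RefSeq table of GRCm38, used for names and gene order only, lists 408 nuclear tRNA genes, of which chromosome 13 has 105, the most of any chromosome, chromosome 11 has 52 and chromosome 3 has 40. Together these chromosomes hold 48.3% of them. On chromosome 13, 3 runs of neighbouring tRNA genes, with at most 14 other genes between them, held 27, 32 and 45 tRNA genes. The run of 27 ends next to the histone gene H2bc13 and the run of 45 next to H4c8. Valine, alanine and tyrosine tRNAs were the most numerous in the run of 45. On chromosome 3, a run of 25 tRNA genes of 7 amino acids, led by asparagine and histidine, also held 8 genes of small nuclear RNAs, 3 of them named as U1 genes (Rnu1b1, Rnu1b2 and Rnu1b6). On chromosome 11, a run of 18 started after Ctc1, a telomere maintenance gene, and ended before Aloxe3, a lipoxygenase gene, and it held no small nuclear RNA gene. Coordinates were not carried between the builds, so these runs were not matched to single peaks, and whether a given peak lies over a tRNA gene was not tested.

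Narrow peaks made up most of the peaks in each window. The second window of chromosome 13 had 39 of them among 46 peaks, and the first had 22 among 24. The chromosome 3 window had 22 among 32, and the chromosome 11 window 15 among 22. Over the windows, 98 of 124 peaks, or 79.0%, were narrow, against 24.6% of all peaks in the lists; width chose the members and the windows were proposed where narrow peaks gather, so this contrast is a description. By window the narrow share was 91.7% and 84.8% on chromosome 13, 68.8% on chromosome 3 and 68.2% on chromosome 11.

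Per length of sequence the windows held similar numbers, from 8.80 members per 100 kb in the first to 11.1 in the second window of chromosome 13, with 9.38 on chromosome 11. On the rest of the same chromosomes narrow peaks stood at 0.139 per 100 kb (chromosome 13), 0.0933 (chromosome 3) and 0.166 (chromosome 11). The windows thus held 9.91% and 17.6% of the narrow peaks of chromosome 13, 13.3% of those of chromosome 3 and 7.08% of those of chromosome 11. As the windows were proposed where narrow peaks gather, these contrasts with the rest of the chromosomes are descriptions. Members covered little of each window, from 1.08% to 1.38% of its bases.

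**Figure D1:**
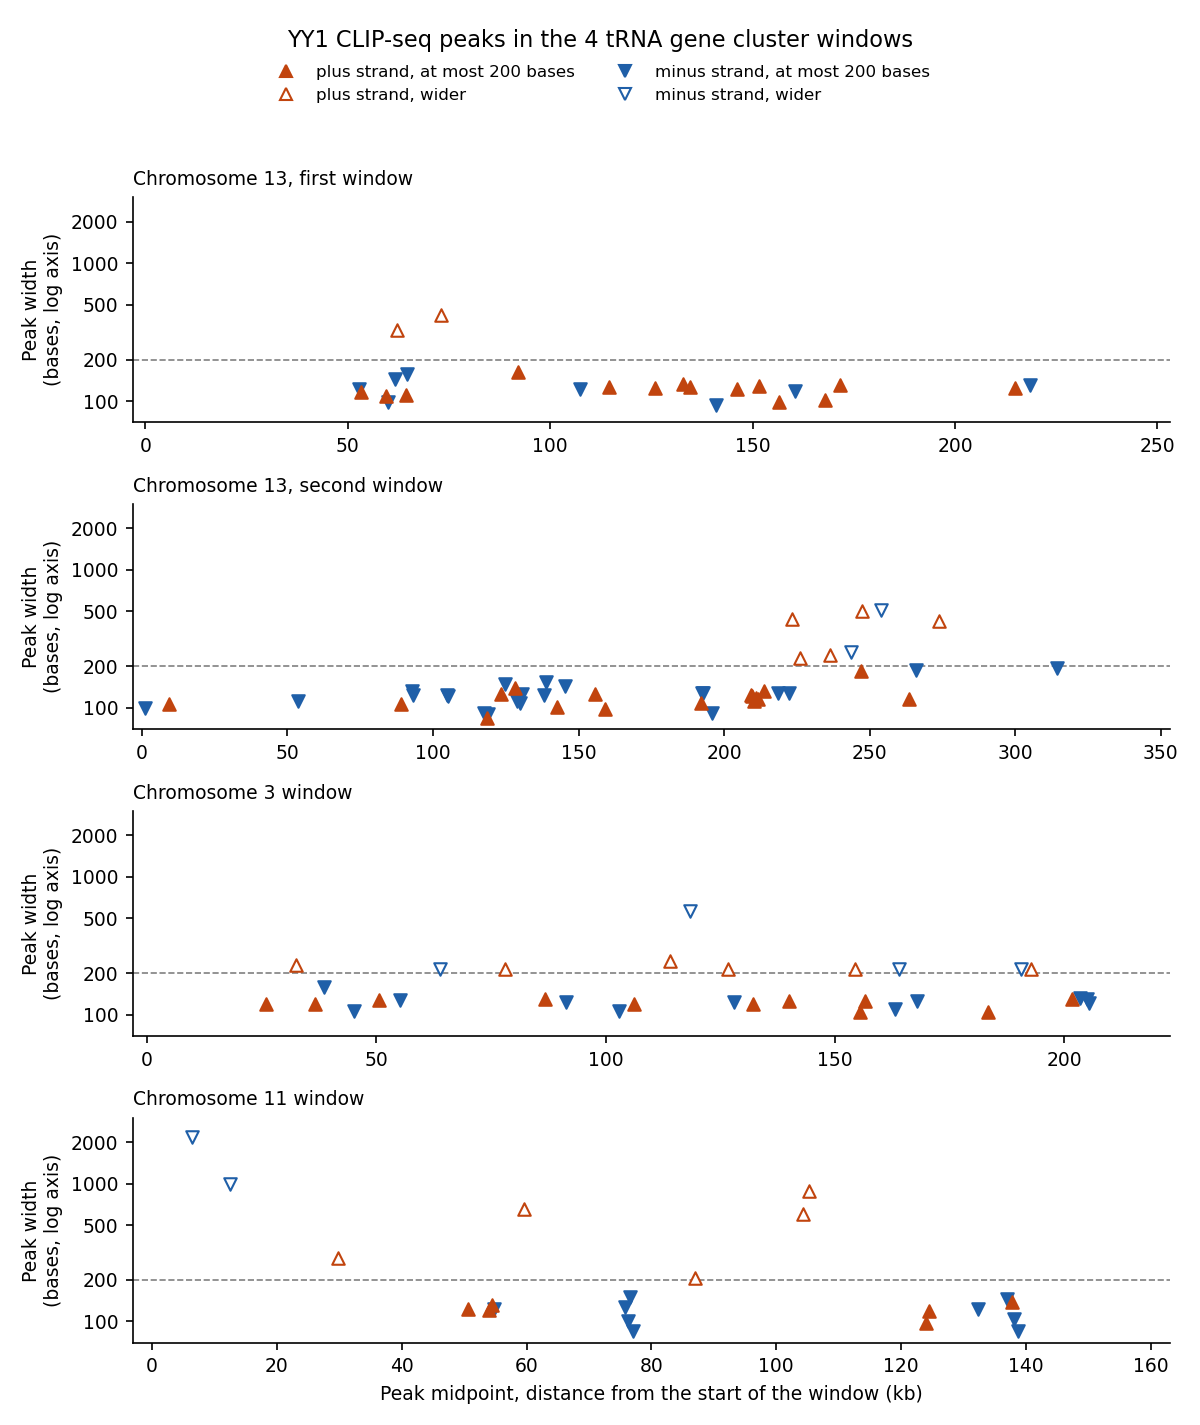
Width of each peak (bases, log axis) against the distance of its midpoint from the start of its window (kb), with plus-strand peaks as upward and minus-strand peaks as downward triangles. Filled triangles are the 98 peaks of at most 200 bases, open triangles the 26 wider ones, and the dashed line marks 200 bases. Both strands are mixed along every window, and in the second chromosome 13 window the wider peaks all lie past the point where 35 of the 39 narrow ones have ended.

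In the first window of chromosome 13, the members ran from 21252611 to 21418661. The first of them, on the minus strand at 21252611 to 21252733, was 123 bases wide and was followed 540 bases later by the first plus-strand member, at 21253274 to 21253390, with 117 bases. The last plus-strand member lay at 21414681 to 21414805 (125 bases) and the last minus-strand member at 21418532 to 21418661 (130 bases). The narrowest measured 93 bases (21341011 to 21341103, minus) and the widest 162 bases (21292067 to 21292228, plus). Past 21307281 the members of this window stood mostly alone. Among them, a run of 4 plus-strand peaks with no minus-strand member between them, from 21314453 to 21334564, had widths of only 125 to 132 bases.

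The second window of chromosome 13 was the most populated. Its members ran from 23400868, 868 bases inside the edge of the window, to 23714426. The first minus-strand member, at 23400868 to 23400967, measured 100 bases, and the first plus-strand member, at 23409355 to 23409461, measured 107 bases. The last plus-strand member lay at 23663276 to 23663391 (116 bases). The window held both the narrowest and the widest member of all 98, a plus-strand peak of 84 bases at 23518422 to 23518505 and a minus-strand peak of 194 bases at 23714233 to 23714426, which was also its last. The first member's nearest peak, 1248 bases away, was on the plus strand and 128 bases wide, and it lay outside the window.

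On chromosome 3 the members ran from 96125999 to 96305445. The first and last plus-strand members lay at 96125999 to 96126117 (119 bases) and 96301700 to 96301829 (130 bases). The first minus-strand member, at 96138452 to 96138611, was with 160 bases also the widest of the window, and the last lay at 96305325 to 96305445 (121 bases). The narrowest was a plus-strand peak of 104 bases at 96283323 to 96283426. This window had no member of 100 bases or less, while each of the other windows had at least 3.

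On chromosome 11 the members covered the shortest span, 88.2 kb, from 68850497 to 68938718. The first plus-strand member (68850497 to 68850620) and the first minus-strand member (68854732 to 68854855) both measured 124 bases. The last plus-strand member lay at 68937738 to 68937875 (138 bases) and the last minus-strand member at 68938633 to 68938718 (86 bases). The narrowest measured 85 bases (68876951 to 68877035, minus), and the widest, 323 bases before it on the same strand, measured 150 bases (68876478 to 68876627).

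The members had nearly the same median width in every window. It was 124 bases in the first (95% interval 111 to 130) and 123 bases in the second window of chromosome 13 (112 to 129). The chromosome 3 window had a median of 123.5 bases (119 to 128), and that of chromosome 11 had 124 bases (101 to 131). Over all 98 members it was 123.5 bases (120 to 126), with quartiles at 109.25 and 129 bases. By strand, it was 121 bases on the plus and 124 bases on the minus strand. The medians of the windows thus differed by far less than the width of any of their intervals.

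Widths gathered in a narrow band. From 120 to 129 bases there were 38 members, 38.8% of them, whereas 10.96% of the 2865 narrow peaks outside the windows had such a width. This band, the fullest of 10 bases, was chosen after the widths were seen. It held 8 of the 22 members of the first and 13 of the 39 of the second window of chromosome 13, 12 of the 22 on chromosome 3 and 5 of the 15 on chromosome 11. The most common single width was 124 bases, found in 7 members, followed by 129 bases in 6 and 126 bases in 5. Narrow peaks outside the windows had a median of 133 bases (131 to 135) and spread further, with quartiles at 107 and 168 bases.

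The limit of 200 bases fell between window peaks of 194 and 208 bases. Further below it, no peak in the windows had a width from 163 to 183 bases, a range that held 16.0% of the narrow peaks elsewhere. That range was picked as the widest step between the members' widths, so its emptiness is a description. The 3 members just inside the limit measured 184, 187 and 194 bases, and all lay in the second window of chromosome 13, at 23646906 to 23647089 (plus), 23665691 to 23665877 (minus) and 23714233 to 23714426 (minus). Just outside it were a plus-strand peak of 208 bases on chromosome 11 (68886925 to 68887132) and plus-strand peaks of 213 and 214 bases on chromosome 3 (96226652 to 96226864 and 96254368 to 96254581). In the first window of chromosome 13, nothing lay between 162 and 329 bases.

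**Figure D2:**
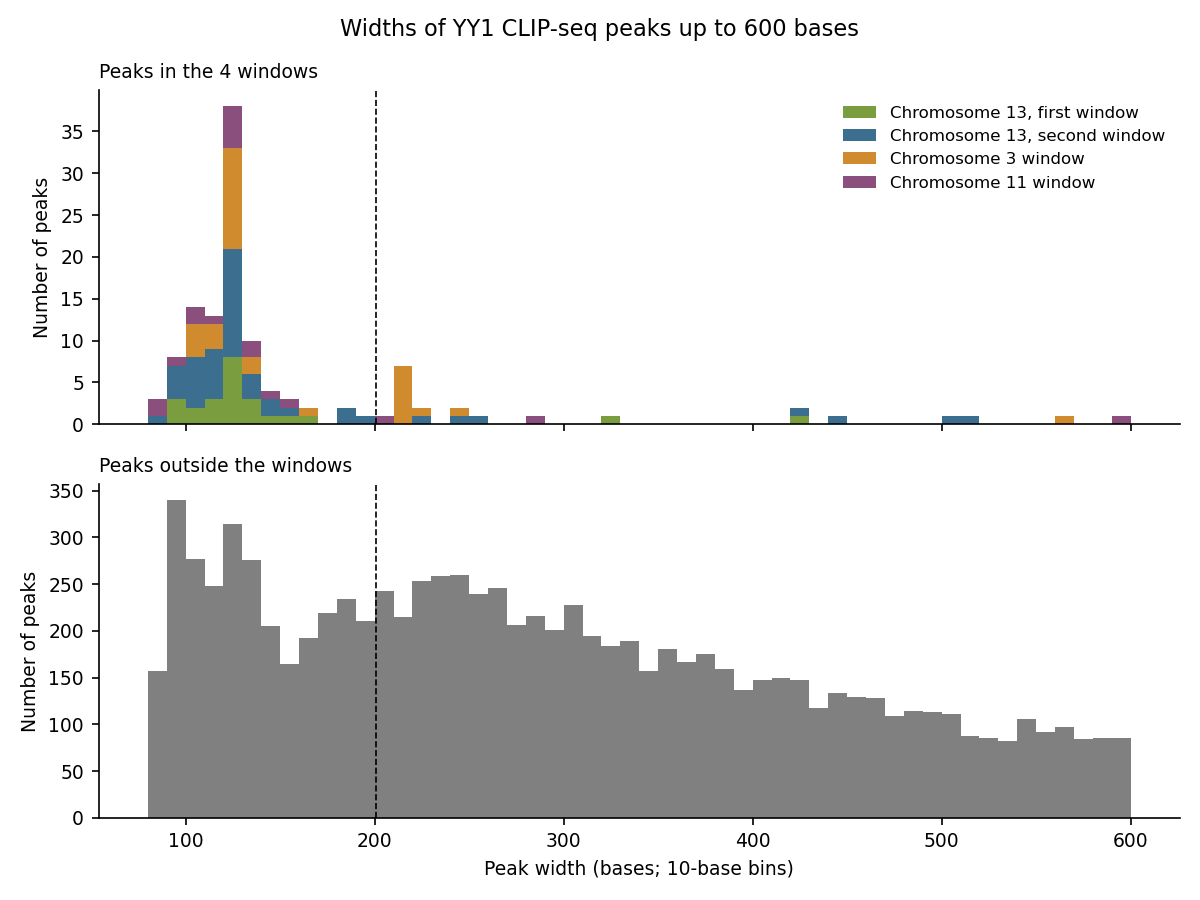
Number of peaks by width in 10-base bins up to 600 bases, for the 4 windows (top, stacked by window) and for all peaks outside them (bottom); the dashed line marks the limit of 200 bases, and 4 peaks in the windows and 2781 outside are wider than the range shown. The windows show a tall bar between 120 and 130 bases with peaks from every window and a smaller bar from 210 to 220 bases that is made up of chromosome 3 peaks, while the peaks outside spread broadly.

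The members divided almost evenly between the strands. The plus strand had 48 and the minus strand 50, a plus-strand share of 49.0% (38.7 to 59.3), beside 50.7% (48.8 to 52.5) of the narrow peaks outside the windows. The first window of chromosome 13 had 14 plus-strand and 8 minus-strand members (63.6%, 40.7 to 82.8). The second had 17 and 22 (43.6%, 27.8 to 60.4). Chromosome 3 had 11 of each (50.0%, 28.2 to 71.8), and chromosome 11 had 6 and 9 (40.0%, 16.3 to 67.7). The intervals of all 4 windows overlapped each other and held 50%. Overlap of intervals is not a test, and a difference in strand mix between the windows was not tested.

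Of the 26 wider peaks in the windows, 18 were on the plus strand, or 69.2% (48.2 to 85.7). This interval also held 50% and overlapped that of the members. Outside these regions, the lists hold other rows of narrow peaks, and both patterns of strand occur among them. In a row on chromosome 1, from 172958099 to 173041711, the 24 narrow peaks were split 12 to 12. In a row on chromosome 8, from 126062639 to 126147645, all 50 were on the minus strand. The interval of the plus-strand share on chromosome 8, 0 to 7.11%, did not reach that of any of the 4 windows. Both rows were found by joining peaks of the same strand, so strand entered their choice and this contrast is a description. The interval also treats the 50 peaks, which were evenly spaced, as independent. The narrow peaks of these rows had median widths of 132 bases (126 to 139) for the former and 165.5 bases (162 to 168) for the latter, against 123.5 bases (120 to 126) in the windows. Their quartiles lay at 126 and 139 bases and at 160.25 and 170 bases, closer together than the members' 109.25 and 129 bases. Widths that gather in a band were thus not particular to the windows.

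**Figure D3:**
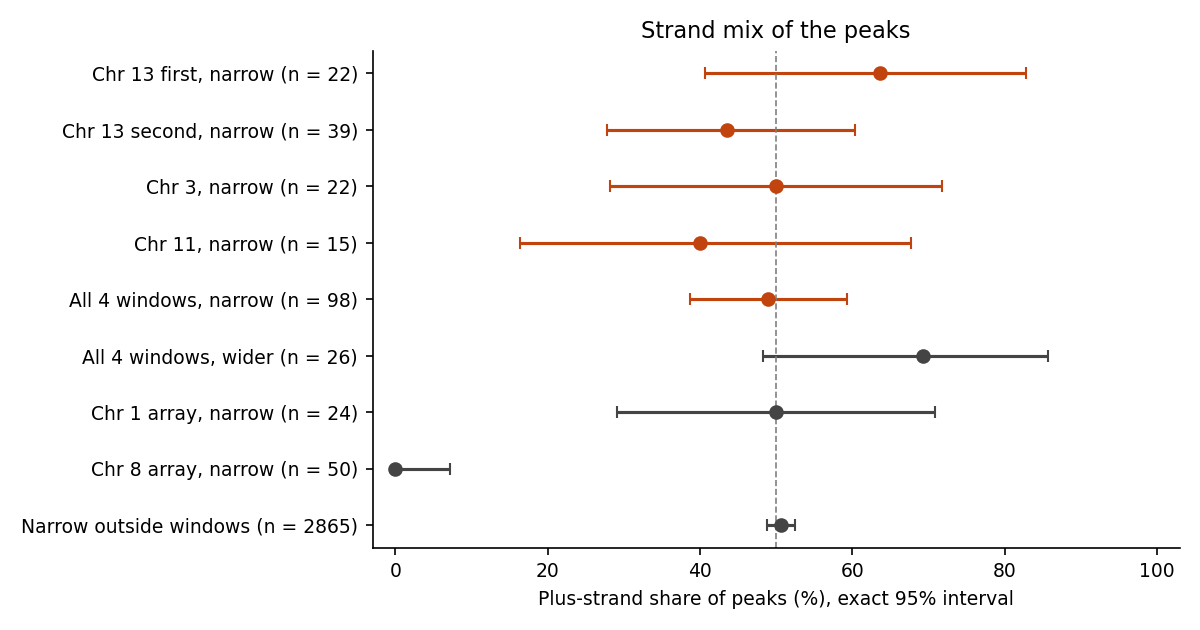
Plus-strand share of peaks (%) with exact 95% intervals for the narrow peaks of each window and of all 4 (orange), and for wider peaks of the windows, the rows on chromosomes 1 and 8 and all narrow peaks outside the windows (grey); n is the number of peaks and the dashed line marks 50%. The interval of every window crosses 50%, while the chromosome 8 row lies at 0.

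Gaps between neighbouring members, on either strand, ran from 124 to 48355 bases. The median gap from the end of a member to the start of the next was 3745 bases (2623 to 4726) over 94 neighbours within the windows. Of these gaps, 34 were of at most 2000 bases, 21 of them under 500, and 23 were over 10 kb. By window it was 4981 bases (2594 to 7049) in the first and 3072.5 bases (861 to 4402) in the second window of chromosome 13, and 5452 bases (3095 to 11529) on chromosome 3. The smallest was on chromosome 11, at 463.5 bases, but over its 14 gaps the interval ran from 190 to 7691 bases and so overlapped the others. Between members of the same strand, the median gap was 7468.5 bases (4775 to 12781). Neighbouring wider peaks of the windows stood a median of 10325.5 bases apart (4479 to 26314), and narrow peaks outside the windows 387149 bases apart. Both contrasts are descriptions. The same windows hold 26 wider peaks and 98 members, and fewer peaks leave larger gaps. The windows were also proposed where narrow peaks gather.

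Gaps were uneven. The closest neighbours of all lay on chromosome 11, where only 124 bases separated a peak on the plus strand (68854477 to 68854607) from the first minus-strand member. The closest in the second window of chromosome 13 were a pair of minus-strand peaks at 23492611 to 23492742 and 23492899 to 23493022, with a gap of 156 bases. The next member, 11738 bases further on, opened a like pair on the same strand, at 23504761 to 23504884 and 23505074 to 23505194, with a gap of 189 bases. The smallest gaps of the other windows were 287 bases (21259492 to 21259599, plus, and 21259887 to 21259984, minus) and 314 bases (96304882 to 96305010 and 96305325 to 96305445, both minus).

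At the other end, every window had a stretch of over 30 kb without a member. The largest gap was 48355 bases, in the second window of chromosome 13, between the last minus-strand members at 23665691 to 23665877 and 23714233 to 23714426. On chromosome 11, a gap of 46950 bases separated the minus-strand peak at 68876951 to 68877035 from the plus-strand peak at 68923986 to 68924083. In the first window of chromosome 13 it was 42990 bases, from 21371690 to 21414681, and on chromosome 3 it was 31661 bases, from 96155166 to 96186828. Wider peaks lay in 3 of these 4 stretches, 3 of them on chromosome 11, 2 on chromosome 3 and 1 in the second window of chromosome 13, while that of the first window held no peak of any width. With no read depth at hand, a stretch free of peaks cannot be said to lack RNA bound by YY1.

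Many members had close company. Another narrow peak lay within 2000 bases, on either strand, for 54 of the 98 members, or 55.1% (44.7 to 65.2), against 10.1% of all narrow peaks in the lists. The share was 86.7% (59.5 to 98.3) on chromosome 11 and 61.5% (44.6 to 76.6) in the second window of chromosome 13. It was 40.9% (20.7 to 63.7) in the first and 36.4% (17.2 to 59.3) on chromosome 3. The interval on chromosome 11 overlapped those of both chromosome 13 windows and began just above the end of that of chromosome 3. Among the narrow peaks outside the windows the share was 8.59% (7.59 to 9.67). Since the windows were proposed for gathering, the contrast with the rest of the genome is a description. Close company was not particular to the windows. Gaps of at most 2000 bases made up 36.2% of those between neighbouring members. In the rows on chromosomes 1 and 8, the share was 69.6% and 98.0%. The median gaps of these rows, 538 and 1533 bases, were below the 3745 bases of the members. The chromosome 8 gaps were nearly constant, with quartiles at 1522 and 1548 bases, not far below the limit of 2000 bases. Those of the members were uneven, with quartiles at 689 and 8213 bases.

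Joined across gaps of at most 2 kb, the members formed 64 groups. Of these, 45 were single peaks, 10 were pairs, 4 had 3 members and 5 had 4 or more. The largest group was in the second window of chromosome 13 and lay wholly on the plus strand. Its 5 peaks, within 2530 bases from 23609066 to 23611595, measured 123, 121, 113, 118 and 115 bases, and the gaps between them were 367, 357, 770 and 446 bases. A sixth plus-strand peak, of 132 bases, followed 2141 bases later at 23613737 to 23613868, and these 6 were the longest run of members on the same strand in any window.

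The other 4 groups had 4 peaks each. On chromosome 11, the group from 68875756 to 68877035 lay wholly on the minus strand, with widths of 128, 101, 150 and 85 bases and gaps of 308, 185 and 323 bases. It was the most tightly packed of the 5, within 1280 bases. Also on chromosome 11, 3 minus-strand peaks and 1 plus-strand peak lay from 68936931 to 68938718, with widths from 86 to 145 bases. In the second window of chromosome 13, 1 plus-strand peak of 139 bases at 23528203 to 23528341 was followed by 3 minus-strand peaks of 112, 109 and 125 bases, up to 23530646. On chromosome 3, 1 plus-strand peak of 130 bases at 96301700 to 96301829 was followed by 3 minus-strand peaks of 132, 129 and 121 bases, up to 96305445. The first window of chromosome 13 had no group of 4.

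**Figure D4:**
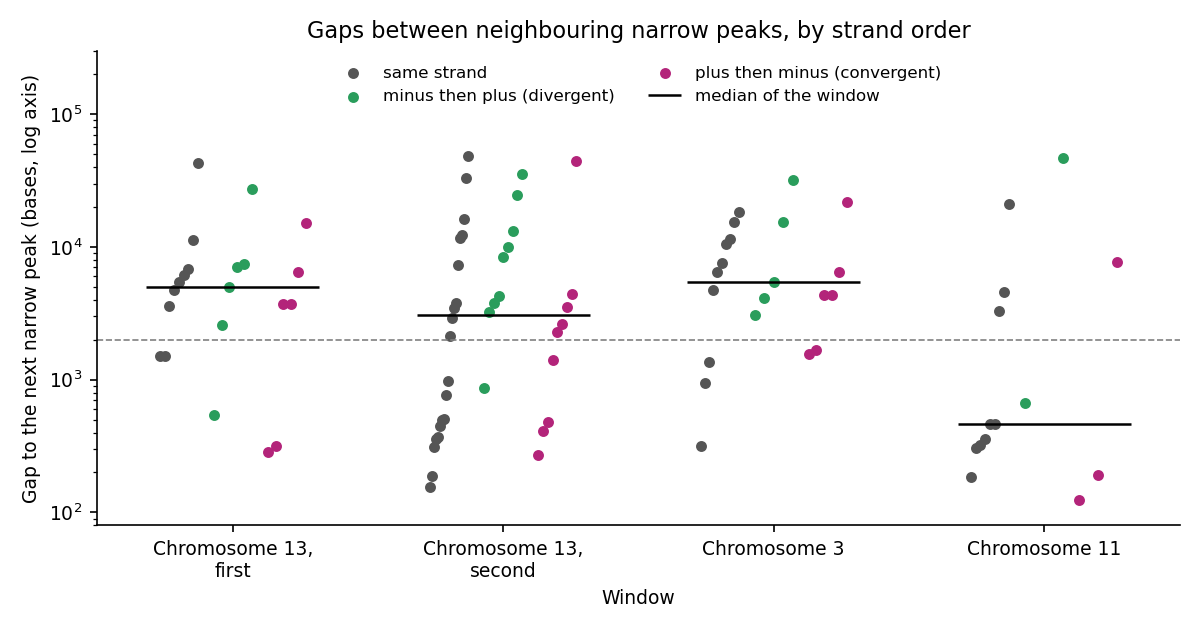
Gap in bases (log axis) from each narrow peak to the next in its window, by window, coloured by whether the strand stayed the same (grey), changed from minus to plus (green) or changed from plus to minus (magenta); points within a colour are ordered by size, horizontal lines are window medians (4981, 3072.5, 5452 and 463.5 bases) and the dashed line marks 2000 bases. Below the dashed line, magenta points outnumber green ones, 10 to 3.

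Along the windows the strand changed at about every other step. Of 94 neighbours, 46 were on opposite strands, or 48.9% (38.5 to 59.5). The share was 57.1% (34.0 to 78.2) in the first and 47.4% (31.0 to 64.2) in the second window of chromosome 13, 52.4% (29.8 to 74.3) on chromosome 3 and 35.7% (12.8 to 64.9) on chromosome 11, with intervals that overlapped. Between neighbouring narrow peaks outside the windows it was 43.3% (41.5 to 45.1), inside the interval of the members. Those peaks stood a median of 387149 bases apart, against 3745 bases for members, so the distances were unlike. At gaps of at most 2000 bases, the strand changed at 38.2% of 34 member steps (22.2 to 56.4). Outside the windows it changed at 22.4% of 156 such steps (16.15 to 29.8), 48 of them in the chromosome 8 row. These intervals overlapped. At larger gaps the shares were 55.0% (41.6 to 67.9) and 44.5% (42.6 to 46.4), again with overlap. In the chromosome 8 row the strand never changed over 49 steps, and in the chromosome 1 row it changed at 39.1% of 23 steps (19.7 to 61.5). Both rows were found by joining same-strand peaks, so these shares are descriptions.

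Changes from minus to plus (divergent, in which transcripts would point away from each other) and from plus to minus (convergent, in which they would point towards each other) were about as frequent. There were 22 divergent and 24 convergent changes, a divergent share of 47.8% (32.9 to 63.1). Which strand a list was named for, that of the RNA or its complement, is not stated, and the second reading would swap both terms. Among neighbours no more than 2000 bases apart, 13 pairs lay on opposite strands, 10 of them convergent and 3 divergent. The divergent share of these close pairs was 23.1% (5.04 to 53.8), and its interval held 50%. Close pairs of narrow peaks outside the windows were divergent in 20 of 35 cases (57.1%, 39.4 to 73.7), and the intervals overlapped. The limit of 2000 bases for this count was set after the data were seen.

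The 10 convergent pairs lay in all 4 windows and had gaps from 124 to 1676 bases, with a median of 365.5. The closest, on chromosome 11, is given above. A further pair on chromosome 11 lay 190 bases apart, with its plus-strand peak at 68937738 to 68937875 and its partner at 68938066 to 68938170. In the second window of chromosome 13, peaks at 23591956 to 23592063 (plus, 108 bases) and 23592337 to 23592465 (minus, 129 bases) were 273 bases apart. In the first window, peaks at 21264229 to 21264339 (plus, 111 bases) and 21264657 to 21264813 (minus, 157 bases) were 317 bases apart. The partners were thus of like width in some pairs and unlike in others. The 3 divergent pairs had gaps of 540 bases (21252611 to 21253390), 662 bases (68936931 to 68937875) and 861 bases (23517470 to 23518505), and the last 2 of these each shared a peak with a convergent pair.

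None of the 98 members shared a base with a peak of the other strand. By the limit of 3 counts that a count of 0 allows, 0 of 98 allows a share of up to 3.06%, and the exact interval reached 3.69%. The share was 1.01% among all narrow peaks and 0.954% among all peaks, so a difference was not detectable. None of the 26 wider peaks of the windows had such an overlap either. The smallest gap between members of opposite strands, 124 bases, was about the width of a member.

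The wider peaks of each window are given next, since the width limit alone sets them apart from the members. On chromosome 3, 7 of 10 measured between 213 and 216 bases, a range noticed after the widths were seen. That range held 0.821% of all peaks in the lists and none of the 16 wider peaks in the other windows. The plus strand had 4 of these 7 peaks and the minus strand 3. They lay at 96163827 to 96164042 (minus, 216 bases), 96177942 to 96178156 (plus, 215 bases), 96226652 to 96226864 (plus, 213 bases) and 96254368 to 96254581 (plus, 214 bases). The remaining 3 lay at 96263900 to 96264113 (minus, 214 bases), 96290428 to 96290642 (minus, 215 bases) and 96292649 to 96292862 (plus, 214 bases). They were scattered along the window among the members, with gaps from 2006 to 48495 bases between them. The nearest member was 781 to 8837 bases away. The other 3 wider peaks of chromosome 3 measured 228 bases (96132347 to 96132574, plus), 246 bases (96213988 to 96214233, plus) and 568 bases (96218177 to 96218744, minus).

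In the second window of chromosome 13 the 7 wider peaks were set apart from most members. They all lay between 23622954 and 23673887, and 35 of the 39 members came before the first of them, 3 among them and 1 after. Of the 4 late members, 3 were the peaks of 184, 187 and 194 bases just inside the limit. The wider peaks were 442 bases (23622954 to 23623395, plus), 229 bases (23626064 to 23626292, plus) and 243 bases (23636352 to 23636594, plus) wide. Further on they measured 255 bases (23643279 to 23643533, minus), 500 bases (23647223 to 23647722, plus), 512 bases (23653744 to 23654255, minus) and 426 bases (23673462 to 23673887, plus). The peak of 500 bases started 133 bases after the member of 184 bases on the same strand, the shortest distance from any wider peak to a member.

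On chromosome 11, wider peaks lay before and between the members. A minus-strand peak of 2176 bases (68805405 to 68807580), another of 1001 bases (68812060 to 68813060) and a plus-strand peak of 287 bases (68829624 to 68829910) came before the first member. Plus-strand peaks of 650 bases (68859196 to 68859845), 208 bases (68886925 to 68887132), 599 bases (68903972 to 68904570) and 886 bases (68904826 to 68905711) lay within the members' span, in the stretches between their groups. None was closer than 4340 bases to a member. The last 7 members came after all of them.

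The first window of chromosome 13 had only 2 wider peaks, both on the plus strand. The peak of 329 bases (21261889 to 21262217) started 254 bases after a minus-strand member, and the peak of 424 bases (21272810 to 21273233) lay 7996 bases from the nearest member. The other 15 members of the window, past the second of these, ran on over 127 kb with no wider peak. Over all windows, the median distance from a wider peak to the nearest member was 7657 bases, and that member was on the same strand in 13 of 26 cases.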

How the data were processed

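Peaks of 1 CLIP-seq library, YY1, were analysed. The authors deposited 2 peak lists without a header, 1 per strand, with chromosome, start and end, and no score, height or read count, so read depth is unknown. The strand was taken from the list's name. Cutadapt, Bowtie, Bowtie2 and SAMtools on mm9 are named per the submitters' processing notes; the peak caller, its threshold, the treatment of reads with several matches and any use of the control are not stated in the labels, notes or lists used here. Width depends on that caller and on depth.

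Starts were converted to 1-based positions. Widths, gaps (end to next start), strand order and opposite-strand overlaps (at least 1 base) were computed for peaks of at most 200 bases in the windows. Shares have exact Clopper-Pearson 95% intervals, and medians have binomial-rank intervals. Whether intervals overlapped is given as a description, and differences between sets were not tested. The rows used for comparison were same-strand peaks joined across 50 kb, with at least 10 peaks and a median width of at most 200 bases; that on chromosome 12, with 7 narrow peaks, was not compared further. Peaks were named by a rule: the ends of each strand, the narrowest and widest members, the smallest and largest gaps, groups of 4 or more within 2 kb and all wider peaks. The other pairs and runs named were picked after their values were seen. The members and lists were chosen with earlier results of these data known. A planned count of members over tRNA genes needs an mm9 annotation and was not made, and no tRNA sequence was at hand. Counting was tested on simulated data, where all 399 planted neighbours and 40 planted overlaps among 400 peaks were recovered. Tools were Python 3.11.15, scipy 1.17.1, numpy 2.4.6, matplotlib 3.10.9 and pandas 2.3.3.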

Additional observations from a re-analysis of the deposited data

How the results depend on the processing

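In all, 74 alternatives were computed. For shares and medians, a value counted as unmoved inside the 95% interval first reported, and for counts within a factor of 1.5, and 73 met this. The exception was the number of narrow peaks without the second window of chromosome 13, 59 against 98, which follows from leaving out the most populated window. Other width limits (150, 220 and 300 bases, and none), windows widened by 50 kb, each window left out in turn and same-strand peaks joined within 100 bases gave plus-strand shares from 44.7% to 53.2%, median widths from 123 to 126 bases and strand changes at 46.3% to 51.3% of neighbours. With these and with distances between midpoints, median spacings ran from 3453 to 4442 bases. The count of opposite-strand overlaps was 0 throughout, also where 50% of the shorter peak had to be shared. That stricter demand could give nothing else, since no peak of the windows, narrow or wider, shared even 1 base. The same holds for the other width limits and for windows left out. Only the windows widened by 50 kb took in further peaks. The divergent share of close opposite-strand pairs ran from 20% to 35.7%, the latter with gaps of up to 5000 bases (18.6 to 55.9, 28 pairs). The limit of 220 bases and the close-pair values were chosen after seeing the data. Joining same-strand peaks within 100 bases changed no value and could not have done so. The closest same-strand members lay 156 bases apart, and the closest wider peak lay 133 bases from a member. Many of the alternatives share most of their peaks with the main set, so the tally is no measure of stability. No paired analysis was possible because the lists come from 1 library. Unknown depth limits all statements on stretches without a peak.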
